A study of Rattus norvegicus with 8 samples.

Results

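Opioid signalling in the hypothalamus of rats exposed to vaporized cannabis was examined through 6 genes: the peptide precursors Penk and Pnoc and the receptors Oprm1, Oprk1, Oprd1 and Oprl1. They were chosen by name, and all 6 were present, with 15 of the 64313 polyadenylation sites that carried a gene symbol and 6 of the 18003 gene symbols. The samples were adult Long-Evans rats, 4 exposed to vapor of cannabis plant matter (7.8% THC, 0.5% CBD) for 10 min and 4 placed in the same apparatus with an empty vaporizer (air-treated controls). All were male and free-feeding until exposure, and hypothalamic tissue was taken 1 hr later, with food removed in between. The tissue is labelled as hypothalamus, and the design text narrows it to the mediobasal part. The methods describe 8 rats per group for this experiment, but 8 libraries were sequenced in all. Each library is taken here as the bulk RNA of 1 rat, so fewer cells of a type and less RNA per cell cannot be told apart.

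Opioid peptides are cut out of larger precursor proteins. Penk encodes proenkephalin, the source of the enkephalins, which act mainly at the delta receptor (Oprd1) and the mu receptor (Oprm1), and Pnoc encodes prepronociceptin, the source of nociceptin, the ligand of the nociceptin receptor (Oprl1). The kappa receptor (Oprk1) is the main target of the dynorphins, which come from a further precursor, Pdyn. All of these receptors couple to inhibitory G proteins, which lower cyclic AMP and open potassium channels, and in the hypothalamus opioid peptides are known for roles in feeding, stress responses and the release of pituitary hormones.

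The assay, WTTS-Seq (whole transcriptome termini site sequencing), captures polyadenylated RNA and sequences from its 3′ end. A transcript gives at most a single 3′ end, so the values were compared between genes without a correction for length. The libraries held from 1159811 to 3706778 reads on sites, fewest in air control replicate 4. A value is a normalized count, that is, reads on a site divided by the size factor of the library, and 1 read was worth from 0.664 to 1.99 normalized counts. A gene total is the sum over the sites with its symbol. Of the 98356 sites 64313 carried a symbol, so a 3′ end of a gene at a site without a symbol is not in its total. The paper's classes of sites assigned to genes include intronic and antisense ones, and the class of the opioid sites was not used here. Comparisons between genes below are of these totals, and how far they stand for transcript numbers was not tested. Of the hypothalamic markers all 9 were found, with summed levels from 3201 to 5581 normalized counts in controls and from 7388 to 9389 in cannabis-exposed rats, which did not overlap, and Avp and Oxt, the hormone genes of magnocellular neurons, carried most of that difference. The 4 markers of midbrain dopamine neurons (Th, Slc6a3, En1, Pitx3) summed to between 543 and 743 normalized counts in controls and between 90.7 and 237 in cannabis-exposed rats. Of the 10 other marker lists, for other brain regions, glia, vessels and pituitary among them, none held a gene with P under 0.01. The part of other tissue in the values below was not tested.

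None of the 6 opioid genes was shown to differ between cannabis-exposed and air-treated rats beyond the spread between rats. In the limma fit of all 18003 gene totals, 0 of the 6 had P under 0.01 or under 0.05, against 50 of all totals at P under 0.01 (0.278%), 433 at P under 0.05 (2.41%) and 1 at an adjusted P under 0.1 (0.00555%). Of those 50 totals 18 were higher after cannabis and 32 lower, a division that was 12 and 42 in edgeR and 12 and 64 in DESeq2 on the recovered reads. It did not hold throughout, being 51 higher and 47 lower in limma without the variance trend, 49 and 35 without control replicate 3, 31 and 30 without cannabis replicate 3, and 15 and 15 without control replicate 1. The groups overlapped for all 6, while they did not overlap for 1.98% of all gene totals. Log2 fold changes of the 6 totals ran from -0.17 to 0.34 with a median of 0.01, beside a median of 0.05 over all totals. Their adjusted P was 0.999 in limma for each.

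**Figure D1:**
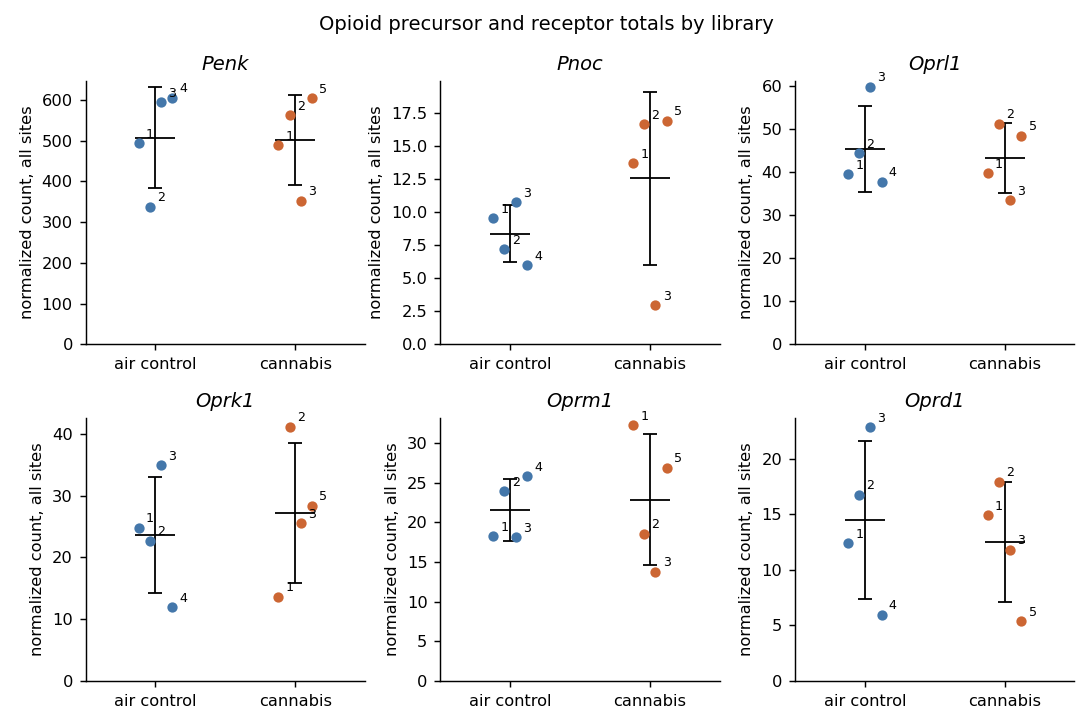
Gene totals in normalized counts (vertical axes, each from 0) in the 4 air-treated (blue) and 4 cannabis-exposed (orange) rats, numbered by replicate, with the mean as a dash and the SD as the error bar. The groups overlap in all 6 panels. Relative to their mean, the cannabis-exposed rats spread most widely at Pnoc, from 2.95 (3 reads) to 16.9.

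Penk had by far the highest total of the 6. Its total was higher than that of 96.7% of all symbols and was read 4532 times over the 8 libraries. The air-treated controls had 493, 338, 594 and 606 normalized counts (replicates 1 to 4), and the cannabis-exposed rats had 489, 562, 352 and 604 (replicates 1, 2, 3 and 5). Each group held 1 rat well below the others, control replicate 2 and cannabis replicate 3, and the highest values of both groups were nearly equal. Controls averaged 508 ± 124 (SD, n = 4) and cannabis-exposed rats 502 ± 111 (SD, n = 4), with P = 0.914 by a two-sided exact permutation test, whose smallest possible P for 4 against 4 is 0.0286. The limma log2 fold change was -0.01 (standard error 0.24, 95% confidence interval -0.53 to 0.51). Any change outside 0.693-fold to 1.43-fold therefore lies beyond that interval.

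Enkephalin neurons are also numerous in the striatum, which lies near the hypothalamus. Of 8 striatal markers 7 were found, with summed levels from 214 to 272 normalized counts in controls and from 183 to 357 in cannabis-exposed rats. Adora2a, the adenosine receptor of striatal enkephalin neurons, was not among the symbols. Drd2, a dopamine receptor of those neurons, had 42.3 ± 16 normalized counts in controls and 22.6 ± 6.39 after cannabis (SD, n = 4). It was the 1 of the 7 with P under 0.05 in limma (adjusted P = 0.999), beside 2.41% of all gene totals. It was also the 1 lower after cannabis, while 6 were higher, and the median log2 fold change of the list was 0.15. All 4 markers of midbrain dopamine neurons were lower after cannabis too, with a median log2 fold change of -2.08. Bulk RNA does not show which neurons the Drd2 reads came from, and this was not tested. Drd1, the dopamine receptor of the other main class of striatal neuron, averaged 2.96 ± 2.04 in controls and 3.69 ± 1.25 after cannabis (SD, n = 4). In cannabis replicate 3, which had the lowest Penk of its group, the striatal sum was 183, and in control replicate 2 it was 232. Control replicate 3 had the lowest striatal sum of the controls, 214, with a Penk total of 594. The part of striatal RNA in Penk was not tested.

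Penk reads came almost wholly from a single site. It held 4516 of the 4532 Penk reads, from 98.4% to 100% of the Penk reads of a library. The other Penk site had 16 reads in all, the lowest number that any site in the files has. It was read in 6 of 8 libraries, with 3, 1, 0 and 5 reads in controls and 0, 4, 2 and 1 in cannabis-exposed rats. The limma test of site usage, which sets each site against the other sites of its gene, gave an adjusted P = 1.00 for this pair of sites.

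Pnoc, the nociceptin precursor, lay at the other end of the range, with 1 site and 99 reads in all. Controls had 9.50, 7.18, 10.7 and 5.96 normalized counts and cannabis-exposed rats 13.7, 16.6, 2.95 and 16.9. Cannabis replicates 1, 2 and 5 were above every control and cannabis replicate 3, with 3 reads, was below every control. The means were 8.35 ± 2.17 (SD, n = 4) and 12.5 ± 6.55 (SD, n = 4), P = 0.314 by the exact permutation test. The limma log2 fold change of 0.34 (standard error 0.51) had a 95% confidence interval from -0.75 to 1.44, or 0.593-fold to 2.72-fold. Without cannabis replicate 3 the log2 fold change was 0.86, with an adjusted P = 1.00 in limma. Penk exceeded Pnoc by between 33.8-fold and 119-fold within a library, with a median ratio of 49.5. The highest ratio, in cannabis replicate 3, rests on 3 Pnoc reads.

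Among the receptors Oprl1, the nociceptin receptor, was highest in every library. It had 1 site and 405 reads, with 39.5, 44.3, 59.8 and 37.7 normalized counts in controls and 39.7, 51.1, 33.5 and 48.4 in cannabis-exposed rats. The values of both groups run through the same range, and the means were 45.3 ± 10.02 (SD, n = 4) and 43.2 ± 8.10 (SD, n = 4), P = 0.83 by the exact permutation test. Its log2 fold change of -0.06 (standard error 0.27) had a 95% interval in limma from -0.64 to 0.52. The Oprl1 total was above that of the precursor of its own ligand, with from 2.86 to 11.3 times the Pnoc count of the same library. The highest ratio, in cannabis replicate 3, and the next, 6.33 in control replicate 4, each rest on 3 Pnoc reads.

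Oprk1, the kappa receptor, had 24.9, 22.7, 34.9 and 11.9 normalized counts in controls and 13.7, 41.2, 25.6 and 28.4 in cannabis-exposed rats. The lowest values, of control replicate 4 and cannabis replicate 1, rest on 6 and 11 reads. Means were 23.6 ± 9.43 (SD, n = 4) and 27.2 ± 11.3 (SD, n = 4), P = 0.629 by the exact permutation test, and the log2 fold change was 0.19 (standard error 0.40, 95% interval in limma -0.68 to 1.06). With the main of its 2 sites at 230 of 247 reads, Oprk1, like Penk, was read at a single leading site. The minor site had no read in control replicate 4, where a count of 0 allows up to 5.96 normalized counts (3 reads), more than was found there in any library.

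Oprm1, the mu receptor and main target of morphine, was read at 7 sites, and none of them dominated. Its total was 18.3, 23.9, 18.1 and 25.8 normalized counts in controls and 32.3, 18.6, 13.8 and 26.9 in cannabis-exposed rats. Cannabis-exposed rats held both the highest and the lowest value. The means of 21.5 ± 3.93 (SD, n = 4) and 22.9 ± 8.28 (SD, n = 4) gave P = 0.743 by the exact permutation test, with a log2 fold change of 0.03 (standard error 0.34, 95% interval in limma -0.71 to 0.77). The leading site held 54 of 188 reads (28.7%) and the others from 20 to 26 reads each, so all 7 were low. In normalized counts the leading site had 7.31, 4.79, 5.37 and 11.9 in controls and 6.21, 5.98, 2.95 and 6.91 in cannabis-exposed rats, which overlap. Its share of the Oprm1 reads averaged 33.9% ± 11.5 in controls and 24.6% ± 5.69 after cannabis (SD, n = 4 each, P = 0.229, exact permutation test).

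The remaining Oprm1 sites varied around a few reads. The largest difference among them was at the site with the lowest mean, with 0.731, 2.39, 2.01 and 0 normalized counts in controls and 2.48, 3.99, 0.984 and 4.61 in cannabis-exposed rats. These are at most 3 reads in a control and 6 in a cannabis library, and the groups overlapped. The log2 fold change of that site was 0.86 (standard error 0.65), with P = 0.114 by the exact permutation test and an adjusted P = 1.00 in limma. Log2 fold changes of the 7 Oprm1 sites ran from -0.33 to 0.86, with 4 above 0 and 3 below. The groups overlapped at all 7 sites and unadjusted limma P ran from 0.197 to 0.879, so neither sign was shown to be a difference between groups.

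**Figure D2:**
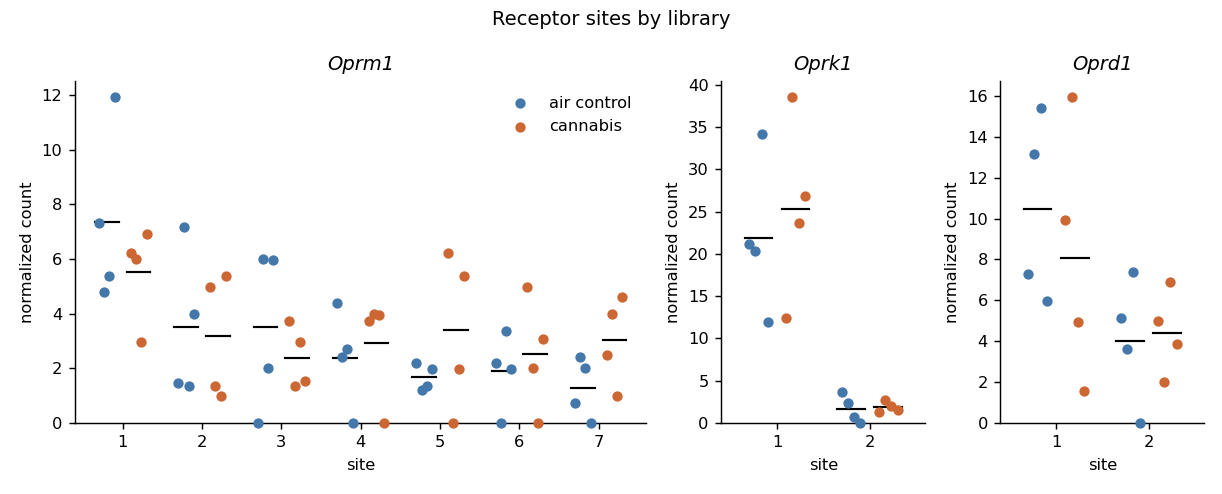
Normalized counts (vertical axes) at the sites of Oprm1, Oprk1 and Oprd1, numbered by falling mean, in air-treated (blue) and cannabis-exposed (orange) rats, with the group means as dashes. Oprk1 was read mainly at its first site, whereas the reads of Oprm1 were divided over 7 sites with means from 2.15 to 6.43.

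Oprd1, the delta receptor, had 12.4, 16.8, 22.8 and 5.96 normalized counts in controls and 14.9, 17.9, 11.8 and 5.38 in cannabis-exposed rats. It fell to 3 reads in control replicate 4 and to 7 in cannabis replicate 5. The means were 14.5 ± 7.11 (SD, n = 4) and 12.5 ± 5.37 (SD, n = 4), P = 0.657 by the exact permutation test, and the log2 fold change of -0.17 (standard error 0.47) had the widest downward interval of the 6 totals, from -1.19 to 0.85 in limma. Its 2 sites were less unequal than those of Penk or Oprk1, with 86 and 40 reads. The share of the second site ran from 0% in control replicate 4 to 71.4% in cannabis replicate 5. On average it was 23.7% ± 17.8 in controls and 43.6% ± 26.8 after cannabis (SD, n = 4 each), a difference with P = 0.257 by the exact permutation test and P = 0.310 (adjusted P = 1.00) in the limma usage test.

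Across all 15 sites, 0 had P under 0.01 or under 0.05 in the limma fit of the 98356 sites, where the shares of all sites past these thresholds were 0.381% and 3.03%. The groups overlapped at all 15, against 2.0% of all sites without overlap. Of the 13 sites that share their gene with another, 0 had P under 0.01 or under 0.05 for usage, where the background was 0.655% and 3.51%. Log2 fold changes lay between -0.57 and 0.86, 8 above 0 and 7 below. Only 4 of the 15 had a mean of at least 10 normalized counts, and at the other 11 the 95% intervals of the log2 fold change in limma reached from as low as -2.06 to as high as 2.21.

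**Figure D3:**
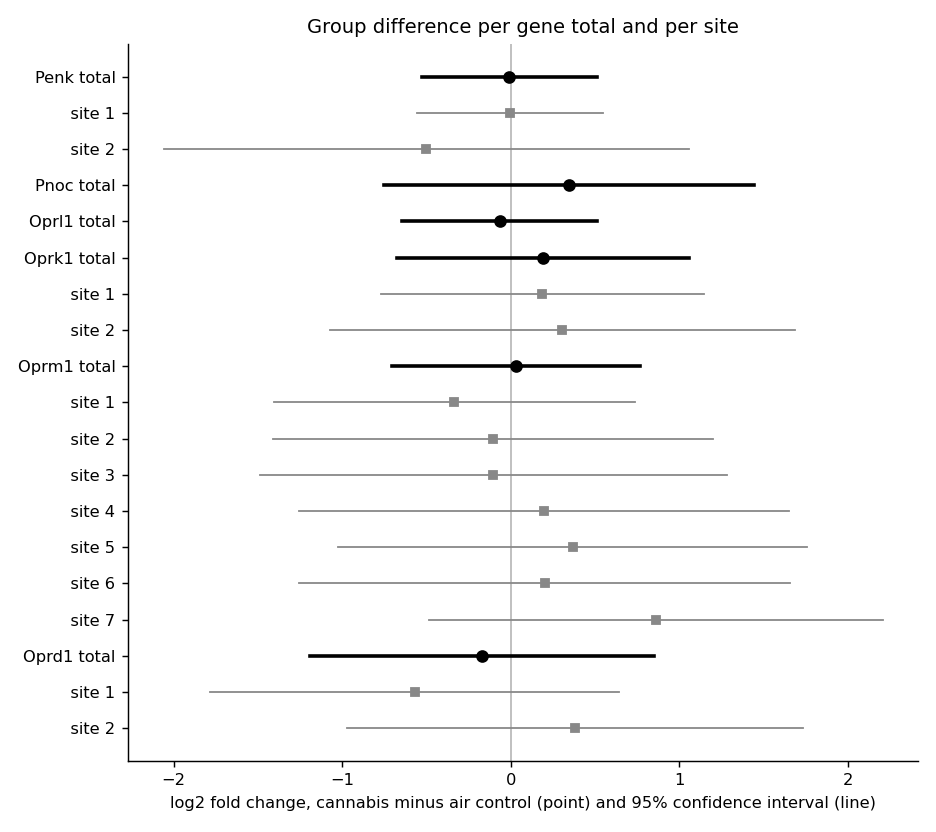
Log2 fold change between cannabis-exposed and air-treated rats (points, horizontal axis) with the 95% confidence interval from limma (lines), for the 6 gene totals (black) and for each site of genes with several sites (grey). Every interval spans 0, the narrowest being that of Penk, -0.53 to 0.51, and intervals of single sites are wider than those of their gene totals.

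In order of mean total over the 8 libraries the genes stood as Penk (505 normalized counts), Oprl1 (44.2), Oprk1 (25.4), Oprm1 (22.2), Oprd1 (13.5) and Pnoc (10.4). Penk was above Oprl1 and Oprl1 above Oprk1 in 8 of 8 libraries, with P = 0.00781 for each by a two-sided exact sign-flip permutation test within libraries, the smallest that 8 libraries allow. Oprk1 and Oprm1 were in that order in 5 of 8 libraries (P = 0.664, exact test) and Oprd1 and Pnoc in 6 of 8 (P = 0.313, exact test), so neither pair differed beyond its spread, although P for Oprd1 and Pnoc was 0.0312 without cannabis replicate 5 (exact test). Oprm1 was above Oprd1 in 7 of 8 libraries (P = 0.0391, exact test), but P rose to 0.0781 when any of control replicates 1, 2 and 4 or cannabis replicates 1 and 5 was left out. The P of these 5 pairs are unadjusted. When a gene was represented by its leading site alone the order became Penk, Oprl1, Oprk1, Pnoc, Oprd1 and Oprm1, since Oprm1 is divided over so many sites.

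Summed over the 4 receptors, controls had 105 ± 23.1 normalized counts (SD, n = 4) and cannabis-exposed rats 105.8 ± 18.4 (SD, n = 4), P = 0.943 by the exact permutation test, from 81.4 to 136 in single libraries. Of their 966 reads Oprl1 held 41.9% (95% Wilson interval 38.9 to 45.1), Oprk1 25.6% (22.9 to 28.4), Oprm1 19.5% (17.1 to 22.1) and Oprd1 13% (11.1 to 15.3), intervals that cover counting error only. These pooled shares weight libraries by their receptor reads, from 41 to 202. With each library weighted equally, Oprk1 and Oprm1 had nearly equal shares in controls, 21.9% ± 5.36 and 21.6% ± 7.66 (SD, n = 4), and 25.5% ± 8.30 and 21.9% ± 8.14 after cannabis (SD, n = 4). The Oprl1 share was the steadiest, between 39.5% and 46.3% in the 8 libraries. The Oprk1 share ranged from 13.6% to 32.0%, the Oprm1 share from 13.4% to 32.1% and the Oprd1 share from 4.93% to 16.8%. The part of counting error in the spread of these shares was not tested. Oprm1 exceeded Oprk1 in control replicates 2 and 4 and in cannabis replicate 1. Between groups, P for the shares ran from 0.20 to 0.971 over the 4 receptors (exact permutation test, unadjusted). For Oprl1, with the lowest of these P, the share averaged 43.3% ± 2.43 in controls and 40.8% ± 2.40 after cannabis (SD, n = 4 each).

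**Figure D4:**
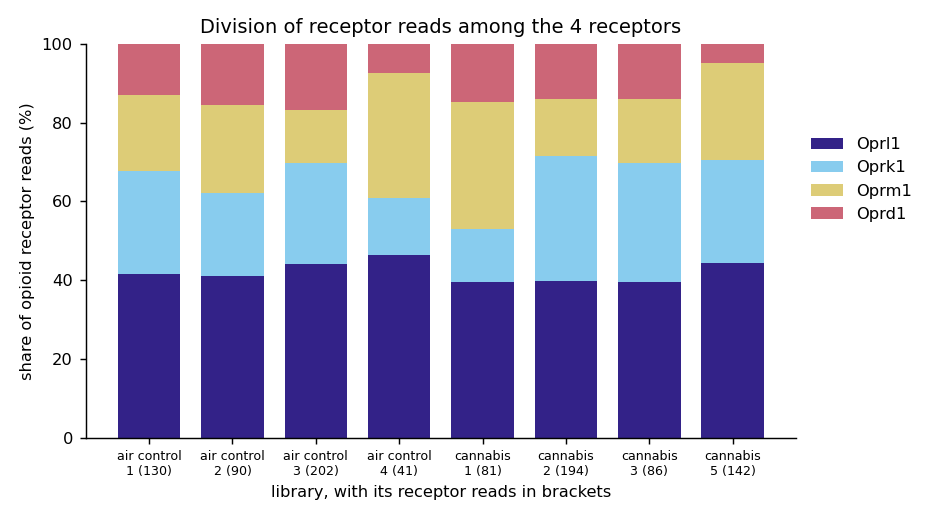
Share of the reads on the 4 opioid receptors (vertical axis, %) that fell on each receptor, per library, with the number of receptor reads in brackets. Oprl1 takes between 39.5% and 46.3% in every library, while the shares of Oprk1, Oprm1 and Oprd1 vary by more than 2-fold. Control replicate 4 rests on 41 reads.

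The spread between libraries was compared with what counting alone would give at the same depth. For Penk the coefficient of variation over the 8 libraries was 21.6%, against 4.52% from counting. Among the 847 symbols with a mean from 256 to 512 normalized counts the median was 22.4%, and 46.8% of them varied less than Penk. Differences between rats, dissection and library preparation cannot be told apart in this spread. Oprl1 varied by 19.2% (15.3% from counting) and Oprm1 by 27.2% (21.5% from counting), and at their levels 12.8% and 21.6% of symbols varied less. For Oprk1 the values were 38.7% and 20.1%, for Oprd1 43.9% and 27.6%, and for Pnoc 48.3% and 31.4%, all between the quartiles of symbols of like level. Cannabis replicate 3 had the lowest value of its group for 4 of the 6 genes and control replicate 4, the library with the fewest reads, likewise for 4.

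**Figure D5:**
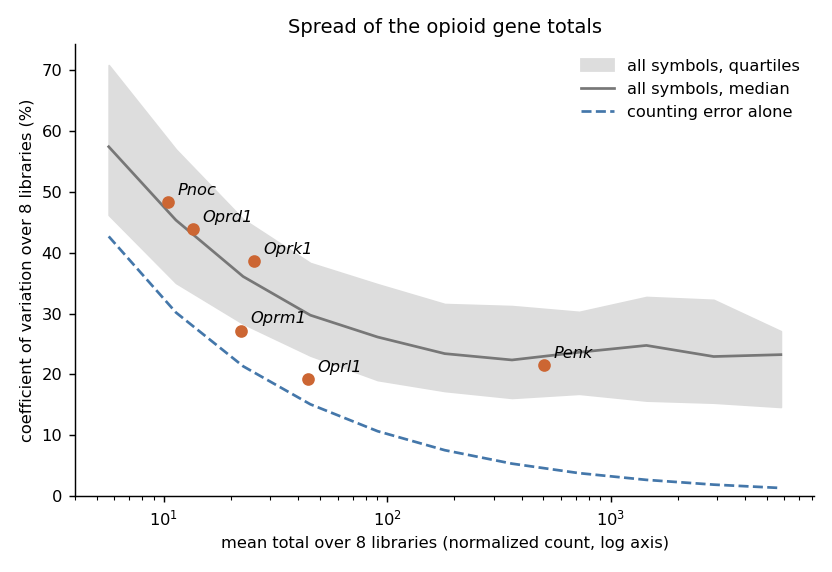
Coefficient of variation over the 8 libraries (vertical axis, %) against mean total in normalized counts (horizontal log axis) for the 6 opioid genes (orange), with the median and quartiles of all symbols (grey, in 2-fold bins of mean) and the value from counting error alone (dashed). Oprl1, at 19.2%, and Oprm1, at 27.2%, lie below the lower quartile of symbols of their level and just above the counting line, and Penk lies near the median.

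The other opioid precursors were Pdyn, the source of the dynorphins, and Pomc, the source of beta-endorphin and of melanocortins. Pdyn had 126, 134, 111 and 83.4 normalized counts in controls and 114, 182, 163 and 163 in cannabis-exposed rats. Only cannabis replicate 1 lay within the range of the controls. The means were 114 ± 22.3 (SD, n = 4) and 156 ± 29.0 (SD, n = 4), or 0.45 higher after cannabis on the log2 scale (standard error 0.23), P = 0.0857 by the exact permutation test and an adjusted P = 0.999 in limma. Pomc had means of 70.6 ± 26.3 (SD, n = 4) and 86.4 ± 17.5 (SD, n = 4), a log2 fold change of 0.34 and P = 0.371 by the exact permutation test. The mean level of Pdyn was thus between those of Penk and of Oprl1.

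Genes that handle opioid peptides and carry receptor signals were described from lists of names. Of 8 genes of precursor processing 6 were found and 0 had P under 0.01 or under 0.05 in limma, with 5 log2 fold changes above 0 and a median of 0.10. By limma the smallest P of that list was that of Cpe, a carboxypeptidase that trims basic residues from peptide intermediates, at 1399 ± 904 against 1847 ± 541 normalized counts (SD, n = 4, control and cannabis, P = 0.40 by the exact permutation test). By the permutation test Cpd, a related carboxypeptidase, had the smallest, with exact P = 0.343. Of 9 peptidases that break peptides down 7 were found and 0 passed either threshold, with 5 below 0 and a median of -0.11. Npepps, a cytosolic aminopeptidase, had the smallest P by both tests, at 1326 ± 99.6 against 1137 ± 152 normalized counts (SD, n = 4, P = 0.114 by the exact permutation test). Neprilysin (Mme), a main enkephalin-degrading enzyme, was low, with 6.57 ± 2.93 against 5.22 ± 1.32 (SD, n = 4).

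Of 29 symbols for receptor signalling 26 were found, among them the inhibitory G protein subunits, potassium and calcium channels, adenylyl cyclases, arrestins, receptor kinases and RGS proteins. None had P under 0.01 in limma, and 1 of 26 had P under 0.05, beside 433 of all 18003 totals. That gene was Gng2, a G protein gamma subunit, for which controls averaged 167 ± 29.3 normalized counts (SD, n = 4) and cannabis-exposed rats 228 ± 31.9 (SD, n = 4). It differed by 0.45 on the log2 scale (standard error 0.21), with P = 0.0571 by the exact permutation test and an adjusted P = 0.999 in limma, and its groups overlapped. The median log2 fold change of the list was -0.05, with 12 above 0 and 14 below.

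For the 4 genes with a mean total of at least 20 normalized counts, the profiles most like theirs over the 8 libraries were found by the root mean square difference of log2 totals, each centred on its own mean, among 9625 other symbols. The nearest to Penk were Cep120 (0.09), Cdk5rap2 (0.13) and Naprt (0.14), where the median symbol was at 0.49. For Oprl1 they were Klk6 (0.08), Ipo11 (0.10) and LOC100911395 (0.11), for Oprk1 LOC100911719 (0.09), Ell3 (0.11) and Taf10 (0.12), and for Oprm1 Nfkbib (0.13), LOC108349805 (0.14) and Tshz2 (0.14). With this many symbols and 8 libraries, each with the same size factor for all its symbols, some profiles lie close in any case. These are given as a description.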

How the data were processed

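The 8 WTTS-Seq libraries, 4 of air-treated controls (replicates 1 to 4) and 4 of cannabis-exposed rats (replicates 1, 2, 3 and 5 by the labels), were analysed. The authors filtered reads with the FASTX Toolkit, aligned them to Rnor_6.0 with TMAP, grouped read ends into sites, dropped sites under 16 reads and named genes with Cuffcompare. The deposited signal per site is the read count divided by a DESeq2 size factor, in 1 file per library. All values (100%) were whole multiples of 1 read within 0.01 reads, and reads were recovered from these steps.

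The files were joined by row order and summed by symbol. All sites and all totals were put on a log2(normalized count + 1) scale and fitted in R 4.3.3 with limma 3.58.1 (lmFit, then eBayes with a trend), a scale that understates the change of low sites, without covariates, with Benjamini-Hochberg adjustment over all features. Thresholds were P under 0.01 and adjusted P under 0.1. Site usage was tested with diffSplice over 57287 sites, and single values with two-sided exact permutation tests. The main limma fits, and edgeR, DESeq2 and limma-voom on gene totals, were tested on simulated data. The other alternatives were not, and no changes were simulated at features with low means. Other steps ran in Python 3.11.15 (scipy 1.17.1, pandas 2.3.3, numpy 2.4.6, matplotlib 3.10.9).

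The members and gene lists were chosen with earlier results of these data known. Sites with a mean of at least 10 normalized counts or P under 0.05 were to be named, with the 3 nearest profiles per gene and, per list, any gene with P under 0.01 or else the smallest P. Other values were added as descriptions after they were seen. Genome positions of the sites and protein sequences were not used here. Same-numbered libraries of the groups did not move together (correlations of deviations from -0.233 to 0.0964 over 3 pairs), and no pairing was used in the main fits. So few pairs cannot exclude pairing, as libraries of unlike number ranged from -0.394 to 0.518. Alternatives were the replicate block, each library left out, other pseudocounts (0.1, 0.5 and 5), a filter on means under 10, equal totals, no trend, edgeR 4.0.16, DESeq2 1.42.0 and limma-voom on recovered reads, and other ways of forming a total.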

Additional observations from a re-analysis of the deposited data

Results flagged for a closer look

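In 46 groups of 4 libraries checked for a library far from the other 3, 3 results stood out, all in cannabis replicate 5, and chance alone gives about 1 in 20. The share of Oprd1 among receptor reads was 4.93% there, where the other cannabis libraries had from 13.9% to 14.8%. The share of Oprl1 was 44.4%, against 39.5% to 39.7% in the others, and since shares add up these values are not independent. The fourth Oprm1 site by mean had 0 reads there, which allows up to 2.30 normalized counts (3 reads), while the other cannabis libraries had from 3.73 to 3.99.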

How the results depend on the processing

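No alternative gave any of the 6 gene totals or the 4 sites with a mean of at least 10 normalized counts a P under 0.05. The Pnoc total without cannabis replicate 3 came closest to that threshold. The sign of the log2 fold change reversed in 25 of 190 refits. Reversals outside the fits that left out a library were the Oprm1 total taken from its leading site (-0.33), the Oprk1 total (-0.14) and leading Oprk1 site (-0.12) under a replicate block, and the leading Penk site in edgeR (0.0308) and limma-voom (0.0305). With each library left out, log2 fold changes ranged from -0.19 to 0.15 for the Penk total, 0.14 to 0.86 for Pnoc, -0.15 to 0.24 for Oprm1, -0.0885 to 0.47 for Oprk1, -0.51 to 0.15 for Oprd1 and -0.15 to 0.0745 for Oprl1, which has 1 site, and from -0.19 to 0.16 for the leading Penk site and -0.0575 to 0.48 for the leading Oprk1 site. The Pnoc log2 fold change was 0.01 with the block. The block rests on 3 same-numbered pairs, since control replicate 4 and cannabis replicate 5 have no partner. Sums over sites with a mean of at least 10 gave no value for Oprm1 and Oprd1, which have no such site.

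Counts over all features moved more. Of all sites, 375 had P under 0.01, but 229 with the replicate block, 138 with a pseudocount of 0.1, 44 among the 22164 sites with a mean of at least 10 (0.199%, against 0.381% of all) and from 227 to 617 with a library left out. For gene totals the 50 became 24 with the block, 29 of the 12114 left by the mean filter (0.239%, against 0.278%), 98 without the trend, 76 in DESeq2, 21 of the 10540 formed from well-read sites (0.199%) and 30 to 90 with a library left out. For site usage the 375 became 223 with the block, 49 of 10252 with the mean filter (0.478%, against 0.655%) and 247 to 552 with a library left out. Of the 6 libraries with a shared number, 0 deviated most like their namesake, but 3 pairs are too few to decide whether the numbers mark pairs. In the order of levels, from 2 to 3 of 5 neighbouring pairs had P under 0.05 with a library left out.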
